A study of Homo sapiens with 4 samples.

Results

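The imprinted growth genes are 10 genes known for expression from a single parental copy and for control of fetal growth: IGF2, DLK1, PEG10, PEG3, MEST, PLAGL1, H19, CDKN1C, MEG3 and GRB10. They were chosen by symbol, matched to the Entrez gene IDs of the files, and stand among 19390 genes listed in any of the 4 libraries. A row was found for 9 of the 10 in every library, and PEG3 (gene ID 5178) is not analysed here. The RNA was from H1, a human embryonic stem cell line labelled wild type, sampled on the way to blood cells in a custom mTeSR1 medium. Day 0 is the undifferentiated line. Day 2 cells had received 40 ng/ml activin A and 50 ng/ml BMP4 for 2 days. Day 3 and day 4 cells had then received 40 ng/ml VEGF and 50 ng/ml bFGF for 1 and 2 days.

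With 1 library per day there were no replicates, no p-value could be given, and day and library cannot be told apart. The libraries held 5.04 to 5.49 M estimated counts. Levels are CPM, counts scaled to the TMM-adjusted library total, in which 1 read is 0.182 to 0.196 CPM, and the 95% intervals (exact Poisson for a level, exact conditional binomial for a fold) cover counting error only. Genes reaching 1 CPM on either day of a comparison were kept, and a difference in log2(CPM + 1) of 1 or more (2-fold on that scale) was called, with those of 2 or more (4-fold) counted as well. Folds of single genes are plain ratios of CPM. As a check of the labels, 6 pluripotency markers summed to 3583, 1468, 721 and 439 CPM at days 0, 2, 3 and 4, and 6 streak and early mesoderm markers to 3.68, 773, 647 and 641 CPM. Within the second sum HAND1 measured 289, 443 and 594 CPM at days 2, 3 and 4, while EOMES measured 374, 168 and 37.4 CPM and TBXT, MIXL1, MESP1 and TBX6 were also highest at day 2. The 5 measured blood cell markers stayed between 21.1 and 28.5 CPM in sum, most of it from SPN, and HBE1 and GATA1 were at 0 counts at days 0, 2 and 3. In bulk samples fewer cells of a type and less RNA per cell cannot be told apart.

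Imprinting marks 1 parental copy of a gene by DNA methylation laid down in the germ line, and many imprinted genes act on growth in opposite directions by parent of origin. In textbook descriptions IGF2, DLK1, PEG10, PEG3, MEST and PLAGL1 are expressed from the paternal copy and H19, CDKN1C and MEG3 from the maternal copy, while GRB10 depends on isoform and tissue. IGF2 and H19 lie side by side and share enhancers, with an insulator between them that CTCF binds on the unmethylated copy, and DLK1, RTL1, DIO3 and the noncoding MEG3 form a similar domain. The files give 1 value per gene, so the parental copy in use was not measured.

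Of the 9 genes with values, IGF2, PLAGL1, CDKN1C, MEST and PEG10 were past 2-fold above day 0 by day 4, and GRB10, DLK1, H19 and MEG3 were under the threshold. IGF2 had the largest difference, 166-fold, and PLAGL1 and CDKN1C were 37.2-fold and 21.2-fold higher. H19 and MEG3, the noncoding partners of the IGF2 and DLK1 domains, did not exceed 2.32 CPM on any day. The courses differed in shape: IGF2 and CDKN1C were higher on each later day, PLAGL1 was level from day 3, MEST was lowest at day 2, and PEG10 and GRB10 were highest at day 2.

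**Figure D1:**
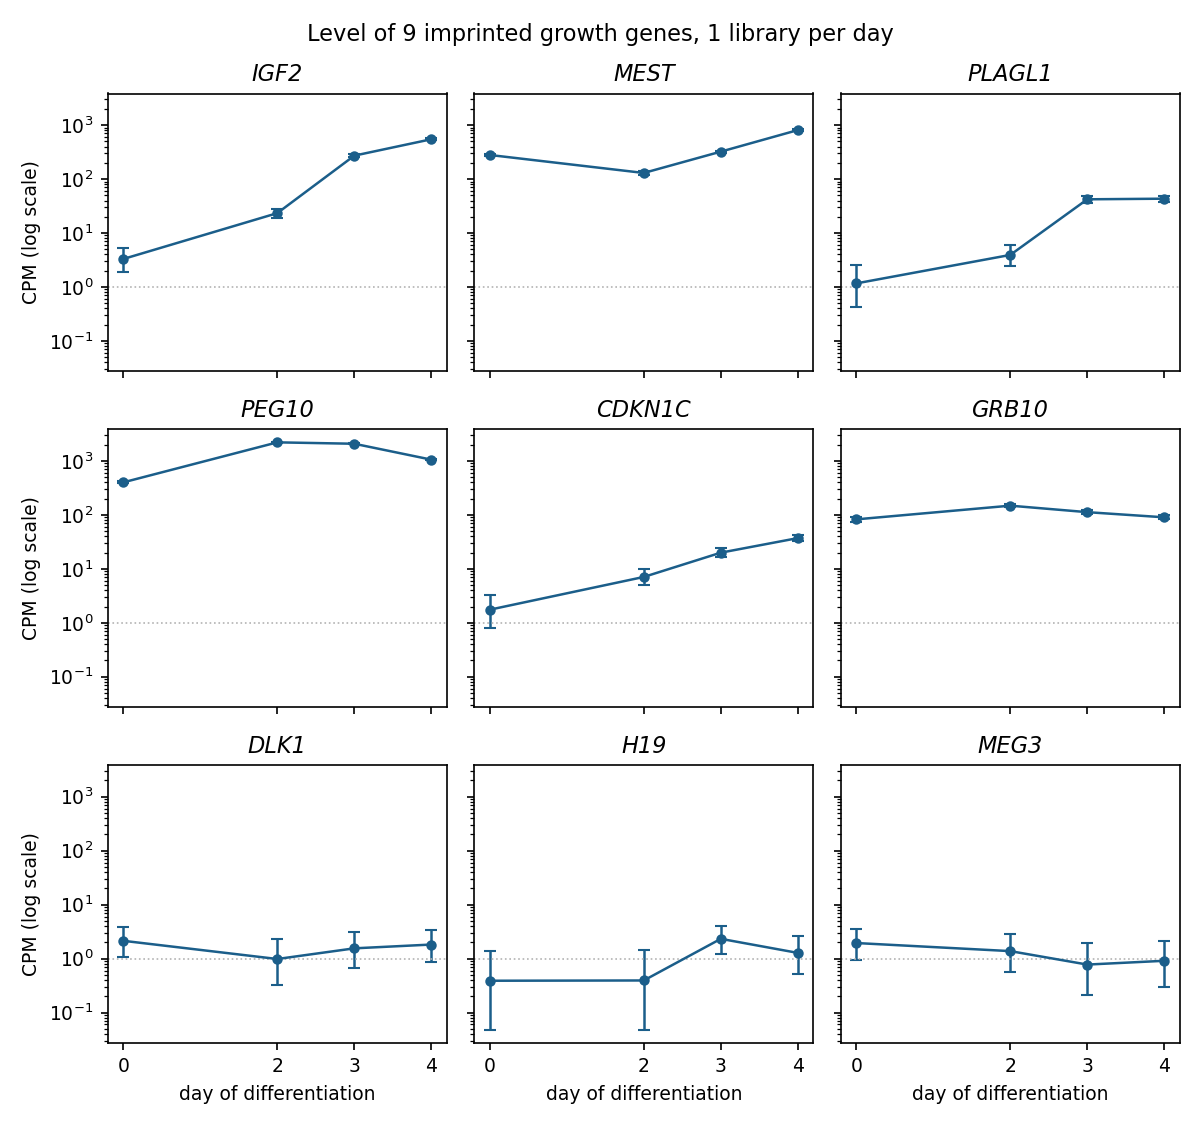
Level of each gene in CPM, on a log axis, against the day of differentiation, with 1 library per day and exact Poisson 95% intervals. IGF2 reached 547 CPM at day 4 and MEST 809 CPM, PEG10 was highest at day 2 with 2205 CPM, and DLK1, H19 and MEG3 stayed near the dotted line at 1 CPM.

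The bases before the transcription start are shown for a pair of genes that were higher after day 2 (PLAGL1 and MEST) and a pair that stayed near the floor (H19 and MEG3). They are the 250 bases upstream of an annotated start, from RefSeq on GRCh38.p14, read on the gene's strand, and capitals mark TGCCGC or its reverse complement GCGGCA, the core of the motif bound by the imprint-keeping factor ZFP57.
PLAGL1, chr6:144008260-144008509, minus strand: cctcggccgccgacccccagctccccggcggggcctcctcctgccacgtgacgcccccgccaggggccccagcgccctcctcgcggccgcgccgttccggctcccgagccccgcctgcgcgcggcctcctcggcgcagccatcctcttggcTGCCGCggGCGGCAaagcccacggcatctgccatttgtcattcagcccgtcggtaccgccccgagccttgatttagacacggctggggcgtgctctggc
MEST, chr7:130491835-130492084, plus strand: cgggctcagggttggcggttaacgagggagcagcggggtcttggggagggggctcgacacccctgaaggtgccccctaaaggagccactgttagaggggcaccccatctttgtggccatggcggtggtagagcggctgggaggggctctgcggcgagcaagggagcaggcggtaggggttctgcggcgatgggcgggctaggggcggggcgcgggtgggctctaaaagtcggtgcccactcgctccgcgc
H19, chr11:2001267-2001516, minus strand: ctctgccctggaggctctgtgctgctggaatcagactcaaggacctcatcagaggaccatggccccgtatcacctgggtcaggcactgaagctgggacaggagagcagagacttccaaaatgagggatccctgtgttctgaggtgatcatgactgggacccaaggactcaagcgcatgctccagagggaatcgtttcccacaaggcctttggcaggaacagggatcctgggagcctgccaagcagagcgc
MEG3, chr14:100825858-100826107, plus strand: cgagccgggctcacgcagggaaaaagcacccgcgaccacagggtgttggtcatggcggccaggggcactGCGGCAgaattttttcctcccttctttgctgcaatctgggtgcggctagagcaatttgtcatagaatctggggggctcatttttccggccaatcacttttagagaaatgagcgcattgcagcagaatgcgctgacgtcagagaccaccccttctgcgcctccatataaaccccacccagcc
Of 10 genes, 5 had an entry in the promoter table (MEST, PLAGL1, H19, MEG3 and GRB10), with 19 starts in all. The motif was found on either strand in 6 of these 19 windows, against 12.7% of 35116 windows of the same length over all genes. The 3 MEG3 windows overlap and hold the same site, so the 6 windows are not separate sites. The window of PLAGL1 printed above ends just before the start that PLAGL1 shares with the noncoding HYMAI. It held 2 motifs, where 1.69% of all windows, not matched for CpG content, held at least 2. The other PLAGL1 windows held 0, so the highest of several windows is set here against a share of single windows. For MEST the printed window held 0, and another, at chr7:130486097-130486346, held 1. The printed PLAGL1 window held 32 CpG dinucleotides, the printed MEST window 20, the MEG3 window 13 and the H19 window 4, against a median of 11 over all windows. Such matches are a description of the letters, and the files do not show which start was used.

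IGF2 (gene ID 3481, chromosome 11), the fetal insulin-like growth factor, measured 3.30, 23.3, 272 and 547 CPM at days 0, 2, 3 and 4, from 17, 119, 1405 and 3007 counts. None of the 4 counting intervals overlapped, and every later day was higher. Day 2 was 7.08-fold above day 0 (95% interval 4.24 to 12.6), and day 3 was 11.6-fold above day 2 (9.64 to 14.1). Day 4 was 2.01-fold above day 3 (1.89 to 2.15), a log2 difference of 1.01 that lies at the threshold. Over the whole course the fold was 166 (103 to 285), which ranked 9 among 15652 genes ordered by log2 difference. Per length, IGF2 was at 0.69, 4.65, 52.7 and 108 FPKM, so that its place among all listed genes was 14021 at day 0 and 606 at day 4. The gene is annotated with a noncoding antisense partner, IGF2-AS, which had 0, 0, 2 and 5 counts, and the use of strand in counting is not given in the sources used here.

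H19 (gene ID 283120, chromosome 11), the noncoding RNA next to IGF2 and host of the microRNA miR-675, had 2, 2, 12 and 7 counts, or 0.388, 0.392, 2.32 and 1.27 CPM. Day 3 was 5.91-fold above day 2 (1.32 to 54.4). This call was lost with a pseudocount of 5 (log2 difference 0.44), on the deposited FPKM (0.77) and at the minimum of 5 CPM. Day 4 stood at 3.28 times day 0 (0.625 to 32.4), a difference not detectable at this depth. In FPKM the ratio of IGF2 to H19 was 4.06, 27.4, 52.7 and 196 at days 0, 2, 3 and 4, with H19 resting on at most 12 counts. The pair therefore showed unequal levels at day 4, with IGF2 at 108 FPKM and H19 at 0.55 FPKM.

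PLAGL1 (gene ID 5325, chromosome 6), a zinc finger transcription factor that restrains the cell cycle, measured 1.16, 3.92, 42.1 and 43.3 CPM. Its counts were 6, 20, 218 and 238, low at days 0 and 2 and high at days 3 and 4. Day 3 was 10.7-fold above day 2 (6.78 to 17.9), which ranked 37 among 15286 genes, whereas day 4 differed from day 3 by 1.03-fold (0.851 to 1.24). Day 2 was 3.37-fold above day 0 (1.31 to 10.3), a call that rests on low counts. The call was lost on the deposited FPKM (log2 difference 0.67), with a pseudocount of 5 (0.53) and at the minimum of 5 CPM. HYMAI, the noncoding RNA with the same start, had 4, 4, 17 and 2 counts. Reads in shared sequence can be split between both models, and with their counts added the day 4 to day 0 difference of PLAGL1 was 3.92 instead of 4.35 on the log2 scale.

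CDKN1C (gene ID 1028, chromosome 11), which encodes the cyclin-dependent kinase inhibitor p57, measured 1.75, 7.06, 19.9 and 37.1 CPM. The counts of 9, 36, 103 and 204 have intervals that do not overlap. Day 4 was 21.2-fold above day 0 (11 to 47.1) and 5.25-fold above day 2 (3.67 to 7.71). Its relatives in the CIP/KIP family were also higher at day 4: CDKN1A (p21) was 3.46-fold above day 0 (2.94 to 4.09), and CDKN1B (p27) 2.06-fold (1.61 to 2.65) and just past the threshold. At day 0 CDKN1C was at 1.01 FPKM, CDKN1A at 17.1 FPKM and CDKN1B at 7.9 FPKM. Per length the ratio of CDKN1C to CDKN1B was 0.128, 0.362, 1.09 and 1.32 over the 4 days. In the same domain PHLDA2, a growth-restraining gene of the placenta in mice, had 4, 19, 27 and 46 counts and was 10.8-fold higher at day 4 than at day 0 (3.94 to 41.2). The noncoding KCNQ1OT1, whose transcription silences CDKN1C on the paternal copy, was 2.48-fold lower at day 4 (2.35 to 2.60), at 407 CPM against 1006 CPM at day 0. Its model overlaps KCNQ1, on the opposite strand, which had 4 counts or fewer.

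MEST (gene ID 4232, chromosome 7), named as a mesoderm-specific transcript and encoding a protein of the hydrolase family, measured 279, 130, 322 and 809 CPM. Day 2 was its lowest day, 2.16-fold below day 0 (1.96 to 2.37). Day 3 was then 2.48-fold above day 2 (2.27 to 2.72), and day 4 was 2.51-fold above day 3 (2.37 to 2.66). With 336 FPKM it was the highest of the 9 genes per length at day 4, in place 163 among all listed genes. The antisense MESTIT1 had 12, 16, 11 and 14 counts, and the neighbouring COPG2, a coat protein subunit gene, measured 75.4, 53.2, 73.4 and 71.2 CPM, so neither showed the day 4 difference of MEST.

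PEG10 (gene ID 23089, chromosome 7), a gene derived from a retrotransposon and needed for the placenta in mice, measured 399.7, 2205, 2077 and 1054 CPM. Day 2 was 5.52-fold above day 0 (5.26 to 5.79), and day 4 was 2.09-fold below day 2 (2.03 to 2.16) and 2.64-fold above day 0 (2.51 to 2.77). It was the highest of the 9 genes per length at days 2 and 3, at 324 and 309.6 FPKM. SGCE, which encodes a sarcoglycan and is read in the other direction from the same promoter region, had 71, 184, 207 and 194 counts. It was 2.62-fold above day 0 at day 2 (1.98 to 3.50) and stayed there, at 0.977 times the day 2 level at day 4 (0.794 to 1.2). The ratio of PEG10 to SGCE in FPKM was 7.48, 15.5, 13.2 and 7.59.

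GRB10 (gene ID 2887, chromosome 7), an adaptor that binds the insulin and IGF1 receptors and restrains growth, measured 82.4, 148, 112 and 90.0 CPM. Day 2 was 1.79-fold above day 0 (1.59 to 2.03), under the 2-fold threshold though its interval excludes 1, and day 4 stood at 1.09 times day 0 (0.957 to 1.25). Its neighbour COBL, an actin nucleator gene, had another course, 8.33-fold lower at day 4 (5.87 to 12.1), with 6.54 CPM against 54.5 CPM at day 0.

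DLK1 (gene ID 8788, chromosome 14), a transmembrane relative of the NOTCH ligands, had 11, 5, 8 and 10 counts, between 0.981 and 2.13 CPM. MEG3 (gene ID 55384, chromosome 14), the noncoding RNA of the same domain, had 10, 7, 4 and 5 counts, between 0.773 and 1.94 CPM. Their counting intervals overlapped across all 4 days, and the day 4 to day 0 ratios were 0.852 (0.324 to 2.21) for DLK1 and 0.469 (0.126 to 1.5) for MEG3. Differences of this size were not detectable at this depth. DIO3, a gene of the same domain that encodes a deiodinase which inactivates thyroid hormone, was set apart from them with 1, 195, 208 and 118 counts. It was 197-fold above day 0 at day 2, with an interval of 35 to 7830.3 because day 0 held 1 count. RTL1, a retrotransposon-derived gene between DLK1 and DIO3, had 0, 16, 18 and 5 counts, at least 5.39-fold higher at day 2 than a floor of 3 counts at day 0. MEG9, another noncoding RNA there, had 5, 18, 7 and 7 counts.

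**Figure D2:**
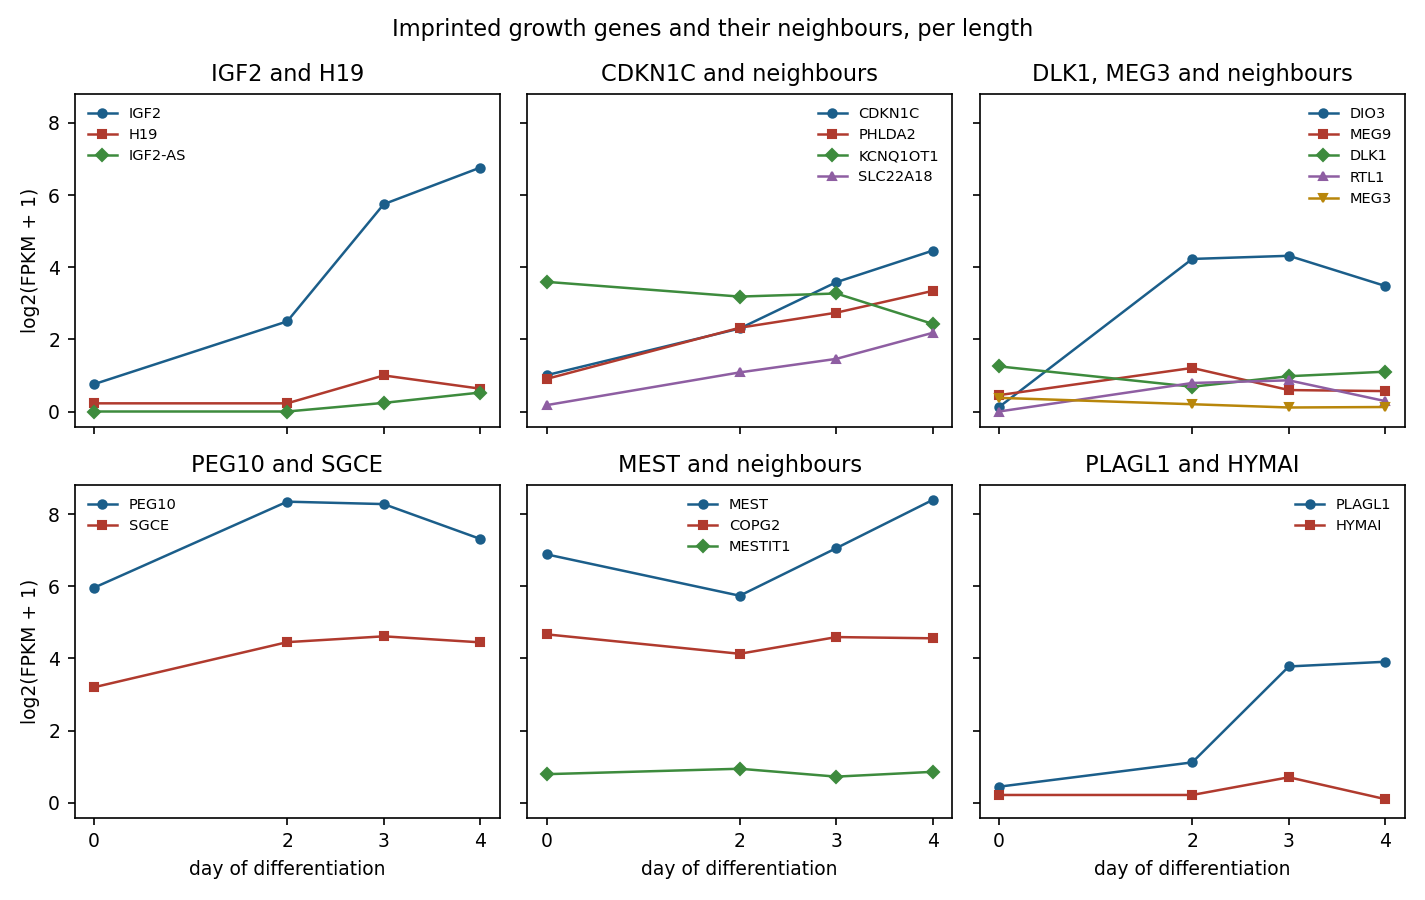
Deposited values per length, as log2(FPKM + 1), against the day of differentiation for the genes and their neighbours in 6 domains, with 1 library per day and no error bars. IGF2 reached 108 FPKM at day 4 beside H19 at 0.55, DIO3 stood above DLK1 and MEG3 from day 2, and SGCE stayed level after day 2 while PEG10 was lower at day 4.

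Between day 2 and day 0, the activin A and BMP4 step, 8 of the 9 genes passed the minimum of 1 CPM. IGF2, PEG10, CDKN1C and PLAGL1 were at least 2-fold higher, 4 of 8, where 12.9% of 15379 genes were, and MEST was at least 2-fold lower, where 8.81% were. At 4-fold, 2 were higher (IGF2 and PEG10), against 4.63% of all genes, and 0 were lower, against 1.93%. With a pseudocount of 5 the calls of CDKN1C (log2 difference 0.84) and PLAGL1 were lost, leaving 2 past 2-fold, and IGF2 (1.77) fell under 4-fold, leaving 1. The median log2 difference was 1.01 over the 8 genes and 0.84 with H19 included, against -0.00 over all genes.

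Between day 4 and day 2, the VEGF and bFGF step, all 9 passed the minimum. IGF2, PLAGL1, MEST and CDKN1C were higher, each by at least 4-fold. Of 15406 genes, 8.18% were at least 2-fold and 2.32% at least 4-fold higher. With a pseudocount of 5, CDKN1C fell under 4-fold and stayed past 2-fold. PEG10 was at least 2-fold lower, where 7.6% were, and 0 were lower by 4-fold, where 1.4% were. The median log2 difference of the 9 was 0.71, against 0.02 over all genes. Between day 3 and day 2, 5 of 9 were at least 2-fold higher (IGF2, PLAGL1, CDKN1C, MEST and H19), against 5.82% of 15286 genes, and 2 at least 4-fold (IGF2 and PLAGL1), against 1.32%. H19 reached the minimum of 1 CPM only at day 3, with 12 counts against 2 at day 2. Its call was lost with a pseudocount of 5, on the deposited FPKM and at the minimum of 5 CPM. None of the 9 was lower, against 3.51% at 2-fold and 0.406% at 4-fold. Between day 4 and day 3, 2 of 8 were at least 2-fold higher (MEST and IGF2), against 2.96% of 15367 genes. None was at least 2-fold lower, against 4.25%, though PEG10 was just short of the threshold, 1.97-fold lower (1.91 to 2.04). None passed 4-fold, against 0.377% higher and 0.228% lower.

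Over the whole course, day 4 against day 0, 5 of 9 genes were at least 2-fold higher, against 16.1% of 15652 genes, and 3 at least 4-fold (IGF2, PLAGL1 and CDKN1C), against 6.27%. None was lower, against 11.9% at 2-fold and 3.44% at 4-fold. With both ends compared, the members higher by 4-fold held both textbook classes, IGF2 and PLAGL1 of the paternal class and CDKN1C of the maternal class, and the members under 2-fold held DLK1 of the paternal class and H19 and MEG3 of the maternal class. DLK1, H19 and MEG3 had 11 counts or fewer on both days, with intervals of 0.324 to 2.21, 0.625 to 32.4 and 0.126 to 1.5. As plain ratios H19 stood at 3.28 and MEG3 at 0.469, so a lack of difference in these genes was not shown. The comparisons share libraries, so they are not independent.

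**Figure D3:**
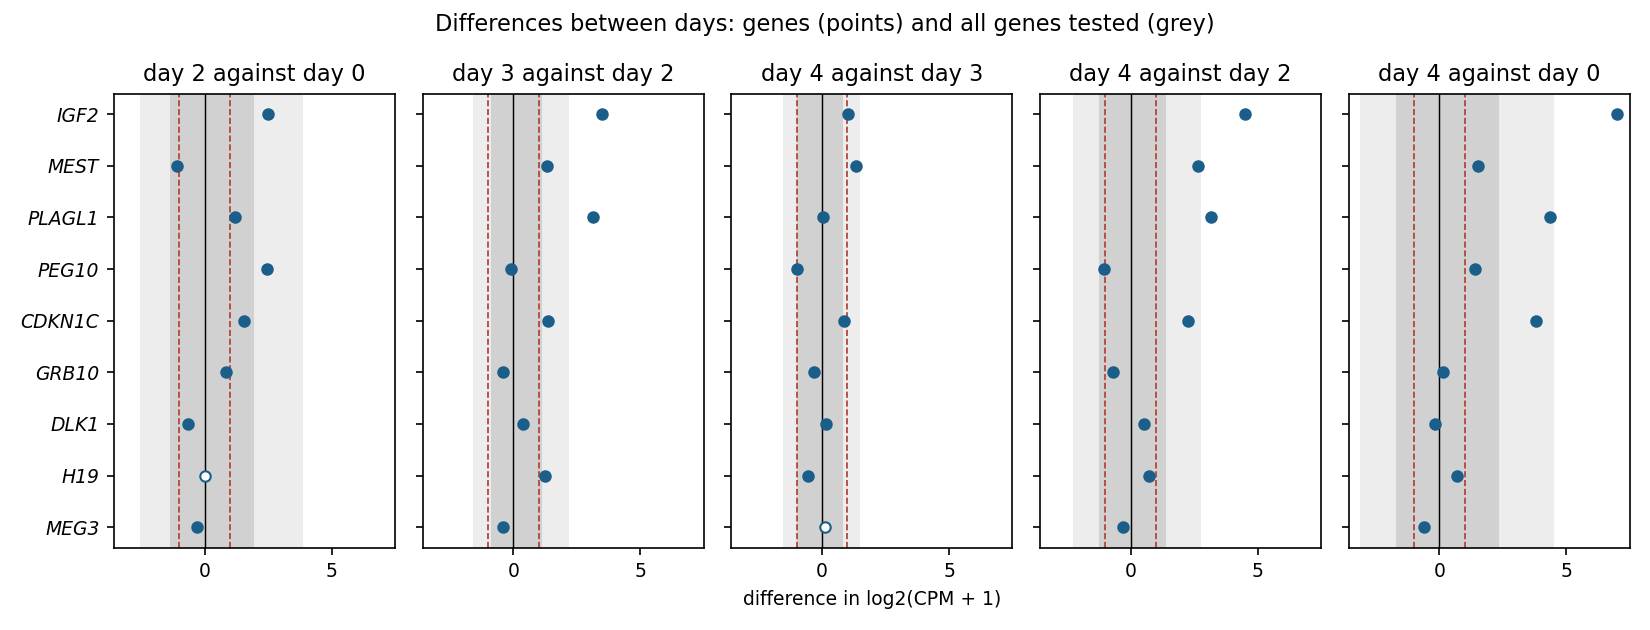
Difference in log2(CPM + 1) of each gene (points, open where it was under 1 CPM in both libraries) in 5 comparisons of days. Dark and light grey cover the central 90 and 98% of all genes tested, and dashed lines mark 2-fold. IGF2 lies beyond the light band in day 3 against 2, day 4 against 2 and day 4 against 0, at 3.48, 4.49 and 6.99, and PLAGL1 in day 3 against 2 and day 4 against 2, at 3.13 and 3.17.

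Marker sums of other cell types also differed between days. Those of endoderm, mesenchyme and endothelium were higher on each later day, as IGF2 and CDKN1C were, whereas MEST was lowest at day 2. The 6 endoderm and yolk sac markers summed to 9.5, 102, 134 and 216 CPM at days 0, 2, 3 and 4, and 2, 5, 5 and 6 of them had at least 1 CPM. The members of this list differed in course. SOX17 made up most of the sum at day 2 and measured 90.4, 89.1 and 55.3 CPM at days 2, 3 and 4. AFP (4.27, 1.37, 6.76 and 22.7 CPM) and APOB (4.85, 1.18, 8.12 and 40.0 CPM) were lowest at day 2, as MEST was. APOA1 was higher on each later day, at 79.6 CPM at day 4, and TTR was at 0 counts until day 3. FOXA2 was higher on each day up to day 3 and then level, at 13.9 and 14.5 CPM at days 3 and 4. The 6 fibroblast and mesenchyme markers summed to 385, 781, 1544 and 2777 CPM, mostly from COL1A1, COL1A2 and, at day 4, COL3A1, with DCN at 0 counts until day 3. COL1A1 was level from day 0 to day 2, at 235 and 241 CPM, and PDGFRB was highest at day 3. COL1A2, COL3A1 and LUM were higher on each later day. The 6 endothelial markers summed to 249, 422, 1056 and 1388 CPM, mostly from KDR. KDR and CD34 were higher on each later day. At days 0 and 2 CDH5 had 3 and 1 counts and TIE1 16 and 7. PECAM1 (11 and 14 counts) and TEK (172 and 180 counts) were level between these days. The 5 measured trophoblast and amnion markers summed to 8.53, 170, 176 and 123 CPM, with GATA3 and TFAP2A high from day 2 and CGA at 0 to 3 counts. KRT7 and HLA-G of the same list were highest at day 0, at 4.85 and 2.33 CPM. The part of these cell types in the levels of the imprinted growth genes was not tested.

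Of 19 genes of the IGF pathway, the route through which IGF2 acts, 17 had values. IGF1, the second ligand, measured 2.72, 14.1, 79.6 and 43.1 CPM, so it was highest at day 3 while IGF2 was highest at day 4. The receptor genes lay within 2-fold of day 0 at day 4: IGF2R, which takes IGF2 to lysosomes, was at 309 CPM at day 4 and 264 CPM at day 0, and IGF1R, which signals, at 125 CPM at day 4 and 178 CPM at day 0. INSR, the insulin receptor gene, was lower on each later day, at 35.1, 25.3, 22.2 and 17.8 CPM, which is close to the threshold at day 4. Per length, IGF2 was below IGF1R at day 2, at 4.65 FPKM beside 17.5 FPKM, and above it at day 4, at 108 FPKM beside 11 FPKM. Among 6 genes named as IGF binding proteins, 5 were past 2-fold above day 0 by day 4, where 16.1% of all genes were. IGFBP2 was within 2-fold. IGFBP5 was 34.1-fold higher (20.2 to 62.9), IGFBP7 44.5-fold (17.1 to 165) and IGFBP3 10.6-fold (7.90 to 14.5). IGFBP2, like MEST, was lowest at day 2, with 116, 39.8, 62.0 and 107 CPM. Of the mRNA-binding IGF2BP genes, IGF2BP3 was 2.17-fold lower at day 4 (2.01 to 2.35), and IGF2BP1 stayed between 681 and 779 CPM. Of 4 adaptor genes of the pathway, 1 was past 2-fold lower at day 4 and 3 were within 2-fold, with a median log2 difference of -0.55. The lower gene was IRS4, at 1.45 CPM at day 4 against 14.0 CPM at day 0. Over the 17 genes, 6 were at least 2-fold higher and 2 lower at day 4, against 16.1% and 11.9% of all genes, with a median log2 difference of 0.22 against 0.03 over all genes.

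**Figure D4:**
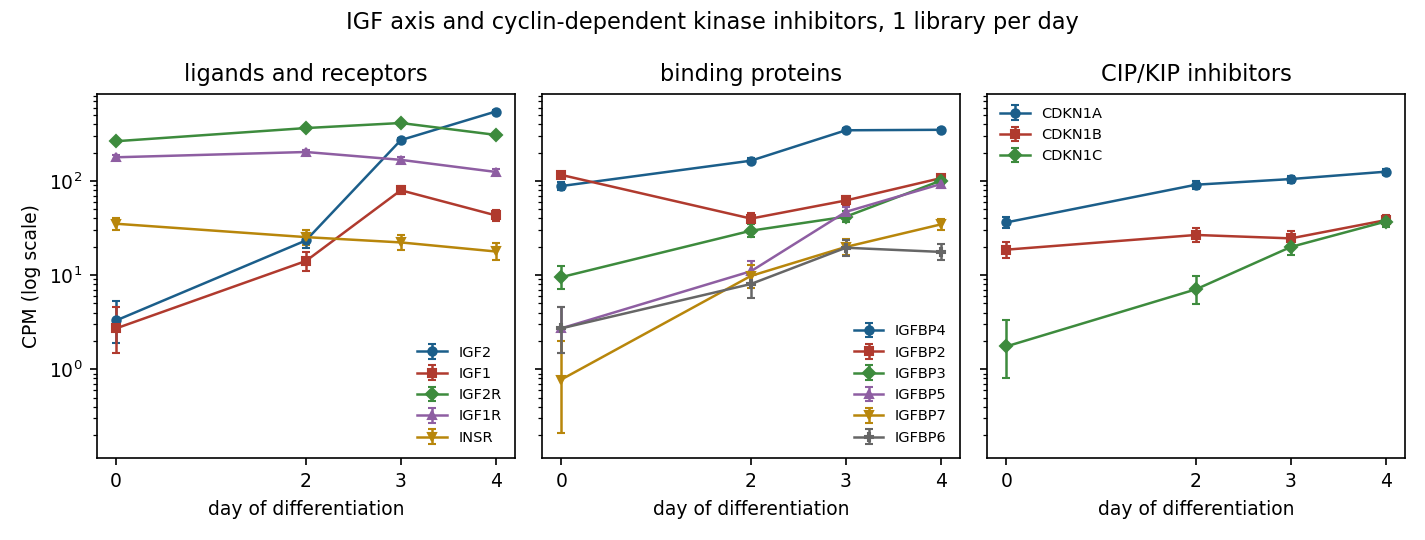
Levels in CPM, on a log axis, of IGF ligands and receptors, IGF binding proteins and CIP/KIP inhibitors by day, with exact Poisson 95% intervals and 1 library per day. The lines show the course of each gene, since CPM does not compare genes of different length. IGF2 reached 547 CPM by day 4, against 23.3 CPM at day 2, IGF1 was highest at day 3, at 79.6 CPM, and CDKN1C was higher on each later day.

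The genes whose course was most like each of the 5 that differed by at least 4-fold between any days were sought among 11512 genes of at least 10 CPM on any day, by the largest gap, over days 2, 3 and 4, between their differences from day 0 in log2(CPM + 1). For IGF2 these were FLI1, GASK1B and HOXB8, with gaps of 0.65 to 0.96. These gaps were not scaled to the range of IGF2, which differed by 6.99 between day 4 and day 0. At day 0 FLI1 and GASK1B were at 0.194 CPM and HOXB8 at 0, so their differences from day 0 depend on the 1 CPM added. For PLAGL1 the nearest genes were GDF6, RIN2 and LTBP2, with gaps of 0.10 to 0.29. CDKN1C was nearest to AKR1C1, LIMCH1 and COL4A2 (0.16 to 0.21), MEST to DYSF, GNG2 and SPATA7 (0.27 to 0.35), and PEG10 to CYGB, PREX1 and the pseudogene PFN1P2 (0.19 to 0.23). Likeness over 4 libraries says nothing of shared control.

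The deposited transcript length per gene, which can move with the mix of transcripts, differed little across days for most of the 9 genes. IGF2 stood at 4856, 4897, 5088 and 5048 bp, PLAGL1 at 3272, 3268, 3283 and 3081 bp, and MEST at 2441, 2431, 2428 and 2411 bp. MEG3 was listed at 6351 bp at day 0 and 9701 bp on the other days, on 10 counts or fewer. DLK1 and H19 had 1 fixed length each, of 1599 and 2322 bp.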

How the data were processed

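RNA-seq libraries of H1 cells at 4 days, 1 library each, were analysed. Per the labels' protocols, 2 ug of Trizol-extracted RNA went into an Illumina TruSeq preparation. Tools named in the submitters' processing notes are RSEM, Bowtie and BWA, without versions, and the build is hg19. Per the file headers, the authors deposited FPKM, an expected count and a length in bp for each Entrez gene ID. The deposited expected counts, rounded to whole numbers, gave all levels and folds, and the deposited FPKM was used to compare genes with each other and for 1 alternative. The deposited length in bp, a measure of another kind, was used as a description only.

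Gene names came from RefSeq (GRCh38.p14), with 19273 of 19390 IDs matched. A gene listed in some files and absent from another was taken as 0 there (the smallest listed count was 0.03). TMM factors came from edgeR 4.0.16 in R 4.3.3, and 5 comparisons of days were made. Other steps used Python 3.11.15 with scipy 1.17.1, pandas 2.3.3, numpy 2.4.6 and, for plots, matplotlib 3.10.9. Alternatives were pseudocounts of 0.1 and 5, DESeq2 1.42.0 size factors, raw totals, no minimum, a minimum of 5 CPM, FPKM, overlapping models added and protein-coding genes for the background. The calling rule and intervals were tested on simulated data.

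The members and lists were chosen with earlier results of these data known. Named genes were all members, models that share exons with them, up to 4 genes of each list with the largest day 4 to day 0 difference and the 3 genes of most similar course. Neighbours such as DIO3, SGCE and COBL, other IGF pathway genes, and marker genes were named after their values were seen.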

Additional observations from a re-analysis of the deposited data

How the results depend on the processing

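No result changed direction past a threshold under any alternative run. Of 160 recounts of the members past 2-fold or 4-fold, 154 stayed within 1.5 times and 6 moved. With a pseudocount of 0.1, 2 members (MEST and DLK1) were at least 2-fold lower at day 2 than at day 0, and 1 (MEG3) at day 4. At that setting H19 was also called 2-fold higher at day 4 than at days 0 and 2. It was called 4-fold higher at day 3 than at day 2. These calls of H19 left the recounts within 1.5 times. With a pseudocount of 5, day 2 exceeded day 0 by 2-fold in 2 members and by 4-fold in 1, and day 4 exceeded day 3 by 2-fold in 1. On the deposited FPKM, day 2 exceeded day 0 by 4-fold in 1 member. Of 360 recomputed log2 differences 341 stayed inside the counting interval and 19 moved. In 3 of the 360, all of less than 0.1, the sign changed or the value became 0. Many of the 360 could not move. The settings of no minimum and of 5 CPM repeat the main values, 45 each. Adding overlapping models altered only PLAGL1 and MEST. All 20 background shares stayed within 1.5 times for protein-coding genes. The setting that adds ZIM2 to PEG3 and INS-IGF2 to IGF2 could not be run for these pairs. No paired analysis was possible because each day is 1 library. Depth limits DLK1, H19 and MEG3, each at 12 counts or fewer on every day.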

Other observations

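Of 42 other imprinted genes, 35 had values. At day 4 against day 0, 30 passed 1 CPM, of which 6 were at least 2-fold higher, 5 lower and 19 within 2-fold, with a median log2 difference of 0.01 against 0.03 over all genes, of which 16.1% were higher and 11.9% lower. TFPI2, a protease inhibitor gene on chromosome 7, was 8.22-fold higher at day 4 (5.92 to 11.7), with 7.76, 39.4, 18.4 and 63.8 CPM at days 0, 2, 3 and 4. SNURF and SNRPN, which share a transcript of the Prader-Willi region and can share reads, were 2.91-fold (2.64 to 3.21) and 2.22-fold lower (2.03 to 2.43). PPP1R9A, a gene for an actin-binding protein, measured 43.4, 29.2, 22.6 and 13.3 CPM. GNAS, which encodes a G protein subunit, was 2.10-fold higher (2.03 to 2.17), at 1963 CPM at day 4 against 937 CPM at day 0.

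A list of 17 genes linked to imprints held zinc finger factors and partners, genes of DNA methylation and insulation, and 6 genes of a maternal complex. Of the 17, 14 had values and 11 passed 1 CPM at day 4 or day 0. Of these 11, 0 were higher by 2-fold and 1 (CTCFL, a testis relative of CTCF) was lower, against 16.1% and 11.9% of all genes. The list had a median log2 difference of -0.50 against 0.03 over all genes. DNMT1, the maintenance methyltransferase, measured 311, 241, 218 and 201 CPM, TRIM28, the corepressor that ZFP57 recruits, 830, 542, 518 and 597 CPM, and CTCF, the insulator protein, 186, 191, 156 and 132 CPM. ZFP57 had 5, 3, 1 and 1 counts, and ZNF445, also an imprint-keeping zinc finger factor, stayed between 69.2 and 86.2 CPM.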
